A study of Saccharomyces cerevisiae with 20 samples.

Results

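Translation efficiency of each gene was compared between growth at 37C and growth at 30C in budding yeast whose DED1 regulatory regions drive the DED1 coding sequence. The efficiency of a gene was its ribosome footprint RPKM divided by its mRNA RPKM in the same culture, where RPKM is the read count of a gene scaled by its length and by the depth of the library. The comparison rested on 10 of the 20 libraries of the study, which are an mRNA and a footprint library from each of 2 cultures at 37C and 3 cultures at 30C. Of the 6679 genes listed, 4977 averaged at least 5 RPKM in each assay over all 10 cultures of the study and were tested. The study asked how far the helicases Ded1 and Dbp1 can stand in for each other and how temperature bears on it. All strains were SK1, and cells grew with aeration in the rich medium YEPD to an optical density of 0.6, with 100 uM cycloheximide for 1 minute before harvest. The other 5 cultures carried the DBP1 coding sequence in place of DED1, 2 at 37C and 3 at 30C. They entered the fit for the estimate of spread and are set beside the DED1 cultures further on. The sample titles mark the 37C and 30C libraries as separate experiments, so temperature and experiment cannot be told apart.

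A ribosome footprint is the stretch of mRNA that a ribosome shields from nuclease, and its abundance follows the number of ribosomes on the messages of a gene. Dividing by mRNA separates a change in ribosome load per message from a change in the amount of message. Ded1 is a DEAD-box RNA helicase that helps the small ribosomal subunit to scan structured 5' leaders, and Dbp1 is its low-abundance paralog in vegetative cells. Growth at 37C is warm but not lethal for budding yeast and activates heat shock factor Hsf1 and the general stress factors Msn2 and Msn4.

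The mRNA libraries held 3.94 to 9.69 M reads and the footprint libraries 4.82 to 9.39 M, as worked out from the smallest steps in RPKM. The shallowest library was the mRNA of 37C culture 2. The median gene had an efficiency of 0.664 and 0.638 in the 37C cultures, against 0.664, 0.646 and 0.650 in the 30C cultures, so the overall distributions had the same centre. RPKM is scaled within each library, so a change in total translation per cell is not visible in it. Genes that mark sporulating or haploid cells were low, with no single gene above 18.6 RPKM of mRNA in a DED1 culture. The 21 meiotic genes summed to 109 and 124 RPKM of mRNA at 37C, against 66.4 to 67.3 RPKM at 30C. The 10 haploid-specific genes summed to 58.1 to 60.7 RPKM at 37C, against 31.8 to 34.2 RPKM at 30C. The 7 a-specific genes summed to 35.8 to 44.4 RPKM at 37C, against 17.5 to 20.0 RPKM at 30C, and the 4 alpha-specific genes to 13.1 to 16.9 RPKM at 37C, against 5.72 to 8.49 RPKM at 30C, with MF(ALPHA)1 at 0 throughout. Every list was thus higher at 37C, and the part of such cells in the results was not tested. Only 2 meiotic genes and 1 haploid-specific gene were abundant enough to be tested, and none passed.

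Efficiency changed at 37C in 334 genes, or 6.71% of those tested, with a limma adjusted p under 0.05 as the threshold used throughout. It was higher in 141 genes (2.83%) and lower in 193 genes (3.88%). The rises had a median log2 change of 0.43, and 15 of them exceeded 2-fold. The falls had a median of -0.62, and 13 exceeded 2-fold, beside a median of -0.0047 over all tested genes. In all 334 genes the values of the 37C cultures lay outside the range of the 30C cultures, which held for 18.9% of tested genes upward and for 21% downward. With libraries rescaled by the median of ratios the split was 196 higher and 148 lower, so more genes rose than fell under that scaling. Of the calls, 3 rises (DBP1, DDR2 and SSA3) and 2 falls (FMP45 and ALD3) averaged under 5 RPKM in 1 of the assays over the DED1 cultures alone, and met the minimum only through the DBP1 cultures.

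Rises and falls were set beside the changes in mRNA and footprints of the same genes. Among the 141 genes with higher efficiency, mRNA was also higher in 63, did not pass the test in 62 and was lower in 16, against 42.2% of all tested genes with higher mRNA and 11.1% with lower mRNA. Footprints were higher in 113 of them, against 39% of all tested genes. Among the 193 genes with lower efficiency, mRNA was higher in 94, did not pass in 81 and was lower in 18, and footprints were higher in 7. Footprints were lower in 97 of the 193, against 13.7% of all tested genes. The median tested gene had a log2 change of 0.24 in mRNA and 0.21 in footprints under RPKM scaling, and median-of-ratios scaling moved these to -0.03 and -0.01, so directions of single mRNAs near that size depend on the scaling. Under that scaling mRNA was higher in 804 and lower in 1165 of all tested genes. It was then higher in 48 and lower in 38 of the 141 rises, and higher in 36 and lower in 37 of the 193 falls.

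**Figure D1:**
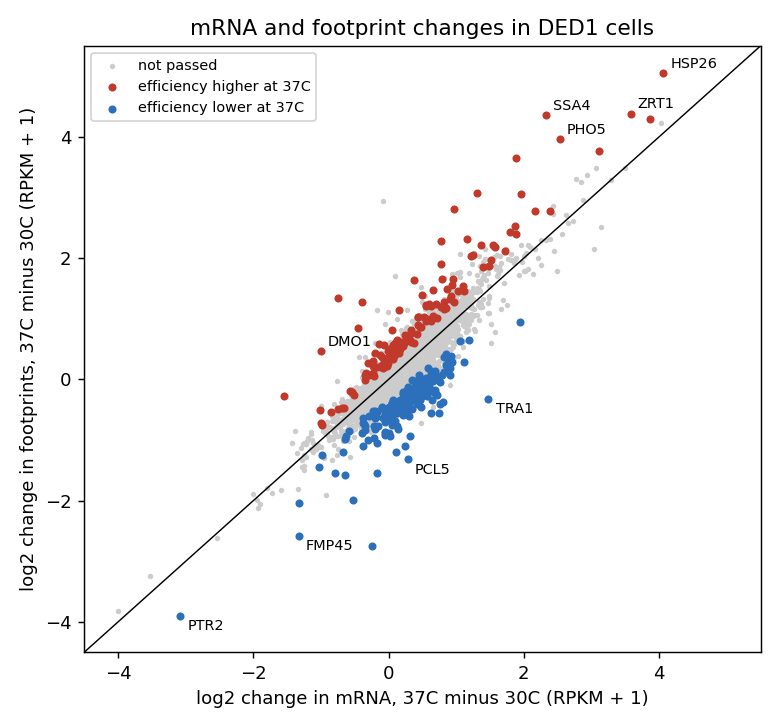
Change in footprints (y axis) against change in mRNA (x axis), each as log2 of 37C over 30C in RPKM + 1, for the 4977 tested genes in DED1 cells, where the diagonal marks equal change. The 141 genes with higher efficiency (red) lie above the diagonal and the 193 with lower efficiency (blue) below it, and SSA4 and HSP26 sit at the upper right because both measures rose.

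The number of calls depended on treating the libraries of a culture as a pair. In a model of all 20 libraries without that pairing, 49 genes passed (7 higher and 42 lower), all of them among the 334. Footprint and mRNA deviations of the same culture were correlated across genes at 0.24 to 0.65, and the median standard deviation between cultures was 0.134 on the log2 scale for the ratio within a culture and 0.194 without pairing. Without 37C culture 1 the count was 80, without 37C culture 2 it was 41, and without 30C cultures 1, 2 or 3 it was 300, 111 or 84. Of the genes named in this text, 16 kept their call whichever culture was left out: SSA4, PHO5, GNT1, ROT1 and VMA3 among the rises, and PCL5, FMP45, NAM8, BDF2, FKS1, PUF4, MET5, HAP4, ACC1, IRA1 and TRA1 among the falls.

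The helicase genes themselves are given here for the DED1 cultures. DED1 had 40.9 and 43.7 RPKM of mRNA at 37C, against 54.2, 50.6 and 48.5 RPKM at 30C. Its footprints were 365 and 365 RPKM at 37C, against 617, 652 and 744 RPKM at 30C. The efficiency of DED1 was therefore 8.92 and 8.37 at 37C, against 11.4, 12.9 and 15.3 at 30C. The groups did not overlap, but the fall of 0.61 on the log2 scale did not pass (SE 0.39, limma adjusted p = 0.395) in the fit that includes the DBP1 cells, which lack the DED1 coding sequence. In a fit of the DED1 cultures alone its adjusted p was 0.0220. DBP1, expressed from its own locus in these cells, was low, with 6.50 and 5.09 RPKM of mRNA at 37C, against 3.90, 3.64 and 4.57 RPKM at 30C. The efficiency of DBP1 was 1.13 and 1.58 at 37C, against 0.959, 0.822 and 0.662 at 30C. DBP1 mRNA averaged 4.74 RPKM over the DED1 cultures, under the minimum that it met through the DBP1 cultures. The efficiency change was 0.61 on the log2 scale (SE 0.16, limma adjusted p = 0.0367), and the call was lost without 37C culture 2, where the change was 0.40 (adjusted p = 0.275), without 30C cultures 2 or 3 (0.0849 and 0.117), without pairing (0.114), in the fit of DED1 cultures alone (0.198), with 5 RPKM added in place of 1 (0.0852), with a replicate block (0.0702), with no minimum level (0.0515) and with the length trend removed (0.0511).

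Several chaperone genes rose, among them SSA4. SSA4, a cytosolic Hsp70 that is nearly silent in unstressed cells, had 85.2 and 88.2 RPKM of mRNA at 37C, against 18.4, 16.3 and 14.8 RPKM at 30C. Its efficiency was 0.831 and 0.895 at 37C, against 0.213, 0.151 and 0.135 at 30C. Message and ribosome load per message both rose, so SSA4 footprints reached 70.8 and 78.9 RPKM at 37C, against 3.93, 2.45 and 1.99 RPKM at 30C. The efficiency change was 4.06-fold on the log2(RPKM + 1) scale (log2 change 2.02, SE 0.16, limma adjusted p = 4.63e-05). Its close relative SSA3 had an efficiency of 0.235 and 0.397 at 37C, against 0.0125, 0.0695 and 0.0269 at 30C, where it rested on 4 to 13 footprint reads per culture, and SSA3 footprints averaged 4.21 RPKM over the DED1 cultures. SSA3 and SSA4 resemble the abundant SSA1 and SSA2, and no source used here says how shared reads were assigned. With 5 RPKM added in place of 1, the log2 changes were 1.27 for SSA4 and 0.58 for SSA3 (adjusted p = 0.0597), and HSP26 and BTN2 no longer passed (0.0793 and 0.125).

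The small heat shock protein gene HSP26, whose product keeps unfolded proteins soluble, had 139 and 148 RPKM of mRNA at 37C, against 9.78, 7.11 and 6.49 RPKM at 30C. HSP26 efficiency was 0.757 and 0.850 at 37C, against 0.391, 0.346 and 0.245 at 30C (log2 change 0.99, SE 0.23, limma adjusted p = 0.0257). The 30C values of HSP26 rested on 21, 11 and 6 footprint reads. BTN2, which gathers misfolded proteins into deposits, had an efficiency of 0.494 and 0.396 at 37C, against 0.320, 0.259 and 0.210 at 30C. Both genes had low efficiency at 30C. The temperatures did not overlap in either, as in all 334 calls. The Hsp90 cochaperone genes HCH1 and SBA1 changed less. HCH1 efficiency was 0.768 and 0.730 at 37C, against 0.598, 0.537 and 0.530 at 30C, and its mRNA was higher as well. SBA1 efficiency was 1.14 and 1.12 at 37C, against 0.931, 0.855 and 0.891 at 30C, while its mRNA did not pass the test (log2 change -0.09, adjusted p = 0.477).

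Of 33 Hsf1 target chaperones tested, 22 had higher mRNA, as did 42.2% of all tested genes. Higher efficiency was seen in 6 of them (SSA4, SSA3, HSP26, BTN2, HCH1 and SBA1), against 2.83% of all tested genes, and none had lower efficiency, with a median log2 efficiency change of 0.08. HSP82, which encodes the inducible Hsp90, had 1319 and 1087 RPKM of mRNA at 37C, against 242, 188 and 157 RPKM at 30C. Its efficiency was 1.25 and 1.23 at 37C, against 1.18, 1.11 and 1.2 at 30C (log2 change 0.09, SE 0.16, limma adjusted p = 0.797). The disaggregase gene HSP104 had an efficiency of 1.17 and 1.18 at 37C, against 0.963, 0.916 and 0.980 at 30C (adjusted p = 0.145), and HSP42 had 0.821 and 0.958 at 37C, against 0.740, 0.674 and 0.545 at 30C (adjusted p = 0.124). HSP82, HSP104 and HSP42 were picked after their values were seen. Of the 6 calls, 2 held without 37C culture 1, 2 without 37C culture 2, 6 without 30C culture 1, 3 without 30C culture 2 and 4 without 30C culture 3, and the lost ones had adjusted p of 0.0512 to 0.231. Without pairing by culture SSA4 and SSA3 passed, and the others had adjusted p of 0.256 to 0.860.

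Among 49 general stress genes driven by Msn2 and Msn4, 33 had higher mRNA, against 42.2% of all tested genes. Higher efficiency was seen in 5 (SSA4, UBI4, HSP26, YRO2 and DDR2) and lower efficiency in 2, against 2.83% and 3.88% of all tested genes. The median log2 efficiency change was 0.16. UBI4, the polyubiquitin gene, had an efficiency of 1.04 and 1.30 at 37C, against 0.706, 0.780 and 0.786 at 30C (log2 change 0.62, SE 0.11, limma adjusted p = 0.00948). DDR2 had the largest fitted change of this list (log2 change 2.09), but on 8 and 10 footprint reads at 37C and on 1, 4 and 5 at 30C, and its mRNA averaged 4.30 RPKM over the DED1 cultures. YRO2, which encodes a plasma membrane protein, had 569 and 350 RPKM of mRNA at 37C, against 40.1, 35.5 and 18.4 RPKM at 30C, and an efficiency of 1.60 and 1.81 at 37C, against 1.25, 1.26 and 1.31 at 30C. The genes that fell were ALD3, an aldehyde dehydrogenase, and MSN4, one of the stress factors itself. The other factor gene, MSN2, is outside this list and fell as well (log2 change -0.62, limma adjusted p = 0.0257). MSN2 was picked after its value was seen and is left out of the counts of named genes in this text. MSN4 had 25.2 and 24.1 RPKM of mRNA at 37C, against 10.3, 12.5 and 8.29 RPKM at 30C, while its efficiency was 1.45 and 1.32 at 37C, against 2.09, 1.85 and 2.37 at 30C (adjusted p = 0.0430). ALD3 had an efficiency of 0.0116 and 0.0190 at 37C, against 0.0307, 0.0901 and 0.116 at 30C, on 3 to 14 footprint reads per culture and a mean of 0.715 RPKM of footprints over the DED1 cultures. The calls of ALD3, MSN4 and YRO2 were all lost without 37C culture 1, without 37C culture 2 and without 30C cultures 2 or 3 (adjusted p of 0.0645 to 0.234).

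Outside the stress lists, the largest rises included genes of metal and phosphate supply. PHO5, the secreted acid phosphatase that is induced when phosphate is scarce, had an efficiency of 1.32 and 1.26 at 37C, against 0.449, 0.369 and 0.346 at 30C (log2 change 1.44, SE 0.19, limma adjusted p = 0.00172). PHO5 mRNA was 64.1 and 24.0 RPKM at 37C, against 5.30, 6.08 and 6.67 RPKM at 30C. Of 18 tested phosphate genes, PHO5 was the only one whose efficiency changed, while 6.71% of all tested genes changed. CRS5, a copper-binding metallothionein, had an efficiency of 0.659 and 0.833 at 37C, against 0.116, 0.339 and 0.157 at 30C (log2 change 1.76, SE 0.45, adjusted p = 0.0362). The 30C values of CRS5 rested on 5, 5 and 4 footprint reads, and its call held in 1 of the 5 fits with 1 culture left out. ZRT1, the high-affinity zinc transporter, had an efficiency of 1.09 and 0.803 at 37C, against 0.414, 0.642 and 0.464 at 30C. Its mRNA was 635 RPKM in 37C culture 1 and 39.1 RPKM in 37C culture 2, so the amount of message differed far more between those cultures than the efficiency did.

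Further large rises came from metabolic and short genes. GNT1, an N-acetylglucosaminyltransferase of the Golgi, had 153 and 162 RPKM of mRNA at 37C, against 150, 151 and 158 RPKM at 30C (adjusted p = 0.670), while its efficiency was 0.507 and 0.448 at 37C, against 0.283, 0.282 and 0.265 at 30C. That is a log2 change of 0.77 (SE 0.11, limma adjusted p = 0.00245). THI6, an enzyme of thiamine synthesis, had an efficiency of 0.586 and 0.426 at 37C, against 0.287, 0.314 and 0.218 at 30C. BLI1, a small subunit of the endosomal BLOC-1 complex, had an efficiency of 0.523 and 0.699 at 37C, against 0.396, 0.359 and 0.327 at 30C. The choice of the largest rises required that the temperatures do not overlap, so the separation in these genes is no further evidence. DMO1, a short gene of 351 bp, was the exception to rising footprints: its mRNA was 45.8 and 68.0 RPKM at 37C, against 116, 125 and 99.7 RPKM at 30C, while its footprints did not pass the test (adjusted p = 0.194). The efficiency of DMO1 was 4.18 and 2.47 at 37C, against 1.35, 1.04 and 1.07 at 30C. MIN9 (228 bp), YHR180W and YJR115W completed the 12 largest rises with log2 changes of 0.99, 1.1 and 0.79. Of the 12 calls of these genes, UBI4 and DDR2, 4 held without 37C culture 1, 4 without 37C culture 2, 9 without 30C culture 1, 10 without 30C culture 2 and 6 without 30C culture 3 (adjusted p of 0.0527 to 0.227 for those lost), and only GNT1 passed without pairing by culture.

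**Figure D2:**
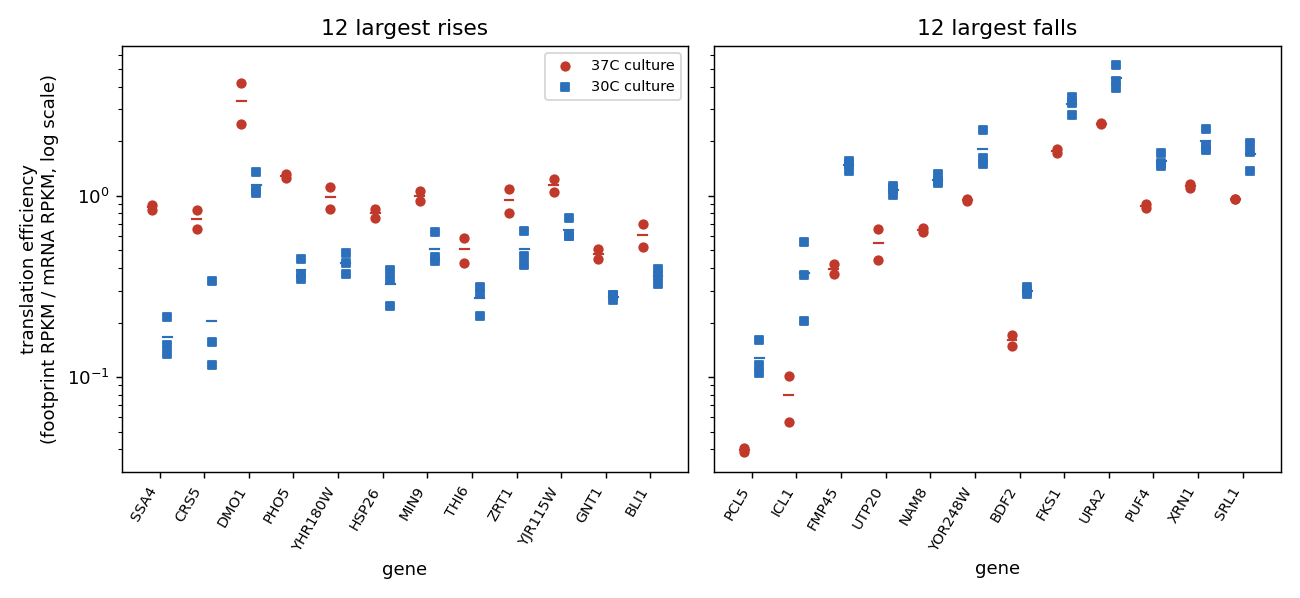
Translation efficiency (footprint RPKM over mRNA RPKM, log axis) in each DED1 culture for the 12 largest rises (left) and the 12 largest falls (right), with 37C cultures as red circles left of 30C cultures as blue squares and short bars at the group means. The choice of these genes required that the temperatures do not overlap, and efficiency at 30C lies below 1 for all rises except DMO1.

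Several gene groups had smaller rises in a few members. Of all tested genes 2.83% rose and 3.88% fell. Rises were 6.31% of genes up to 500 bp and 4.23% of those from 500 to 1000 bp. Of 17 vacuolar ATPase subunits, which acidify the vacuole, 4 had higher efficiency (VMA3, VMA6, VMA16 and VMA11) and none lower. Their median length was 702 bp and their median log2 change was 0.10. VMA3, the proteolipid of the proton channel, had an efficiency of 1.86 and 1.81 at 37C, against 1.35, 1.36 and 1.36 at 30C (log2 change 0.44, SE 0.06, limma adjusted p = 0.00172). Its mRNA was lower (1132 and 1229 RPKM at 37C, against 1516, 1548 and 1417 RPKM at 30C; adjusted p = 0.00685), and its footprints did not pass the test (adjusted p = 0.232). ROT1, an essential chaperone of the endoplasmic reticulum, had an efficiency of 0.604 and 0.631 at 37C, against 0.440, 0.445 and 0.415 at 30C (log2 change 0.51, SE 0.07, adjusted p = 0.00325). It was the only one of 25 genes of endoplasmic reticulum folding that changed.

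Of 25 ergosterol synthesis genes, 3 rose (ERG28, ERG26 and ERG24) and none fell, against 2.83% and 3.88% of all tested genes. Higher mRNA was seen in 13 of them, against 42.2% of all tested genes. ERG26, a sterol decarboxylase, had an efficiency of 0.652 and 0.591 at 37C, against 0.520, 0.471 and 0.436 at 30C. Of 20 glycolytic genes, 3 rose and none fell, against 2.83% and 3.88% of all tested genes, with a median of 0.14. The triose phosphate isomerase gene TPI1 had an efficiency of 1.00 and 1.02 at 37C, against 0.842, 0.817 and 0.796 at 30C (log2 change 0.31, SE 0.05, limma adjusted p = 0.00826). TDH3 and TDH2, the near-identical glyceraldehyde phosphate dehydrogenase genes, rose by 0.31 and 0.32, and reads shared between them may have been split. Of 25 antioxidant genes, with a median length of 591 bp, 2 rose and none fell, against 2.83% and 3.88% of all tested genes. TSA1, the major peroxiredoxin, had an efficiency of 2.21 and 2.51 at 37C, against 1.77, 1.91 and 1.97 at 30C. The thioredoxin gene TRX2 had 1.24 and 1.23 at 37C, against 1.06, 1.06 and 1.04 at 30C.

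Most respiratory genes had lower mRNA and no efficiency change that passed. Of 40 nuclear genes for the respiratory chain and ATP synthase, 35 had lower mRNA at 37C, against 11.1% of all tested genes. Their median log2 mRNA change was -0.88 and their median length 402 bp. Higher efficiency was seen in 4 (CYC1, QCR8, COX9 and COX5A), against 2.83% of all tested genes and 6.31% of genes up to 500 bp. None had lower efficiency and 36 did not pass, with a median log2 efficiency change of 0.05. All 4 calls were lost without 37C culture 2. CYC1, which encodes cytochrome c, had 921 and 1042 RPKM of mRNA at 37C, against 1778, 1698 and 1826 RPKM at 30C. The efficiency of CYC1 was 2.51 and 2.71 at 37C, against 2.08, 2.05 and 2.21 at 30C (log2 change 0.30, SE 0.07, limma adjusted p = 0.0213), so its footprints still fell (log2 change -0.55). Of 33 proteasome genes, with a median length of 867 bp, 31 had efficiency changes above 0 and 2 below 0, with a median of 0.13. Of tested genes with a length, 2505 of 4924 lay below 0. From 500 to 1000 bp 509 of 1347 did, with a median of 0.06. Only RPT5, an ATPase of the base, passed (limma adjusted p = 0.0391). Its efficiency was 0.849 and 0.768 at 37C, against 0.682, 0.639 and 0.634 at 30C.

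These smaller rises rest on few cultures. Of the 18 calls of the groups above, 5 held without 37C culture 1, 3 without 37C culture 2, 13 without 30C culture 1, 5 without 30C culture 2 and 7 without 30C culture 3 (adjusted p of 0.0532 to 0.232 for those lost), VMA3 alone passed without pairing, and 8 held after a smooth trend with gene length was removed. Without that length trend the log2 changes of CYC1, QCR8, COX9, COX5A and TRX2 were smaller by over 1.5 times.

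The largest fall among abundant genes was that of PCL5, the cyclin that marks the transcription factor Gcn4 for destruction. PCL5 mRNA was 396 and 316 RPKM at 37C, against 346, 351 and 202 RPKM at 30C, so those groups overlapped. Its footprints were 15.2 and 12.8 RPKM at 37C, against 36.3, 41.2 and 32.3 RPKM at 30C. The efficiency of PCL5 was 0.0384 and 0.0407 at 37C, against 0.105, 0.117 and 0.159 at 30C, which is 3.03-fold lower (log2 change -1.60, SE 0.16, limma adjusted p = 0.000269). PCL5 thus had little ribosome occupancy at 30C and still less at 37C. BDF2, a bromodomain protein gene, also started low, with an efficiency of 0.170 and 0.149 at 37C, against 0.299, 0.286 and 0.313 at 30C (log2 change -0.88, SE 0.11, adjusted p = 0.00172). BDF2 mRNA did not pass the test (adjusted p = 0.127), and its footprints were 28.0 and 26.1 RPKM at 37C, against 59.0, 56.4 and 56.4 RPKM at 30C.

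Further falls were those of NAM8, PUF4, MET5 and MET10. NAM8, a splicing factor of the U1 particle that is needed for meiotic splicing, had an efficiency of 0.628 and 0.660 at 37C, against 1.17, 1.21 and 1.31 at 30C (log2 change -0.90, SE 0.12, limma adjusted p = 0.00172). PUF4, a Pumilio family protein that binds 3' regions of mRNAs for ribosome assembly proteins, had 0.860 and 0.899 at 37C, against 1.46, 1.51 and 1.72 at 30C (log2 change -0.81, SE 0.12, adjusted p = 0.00480). In both genes mRNA did not pass the test, and the footprints fell. MET5 and MET10 encode the subunits of sulfite reductase. MET5 efficiency was 0.612 and 0.625 at 37C, against 1.61, 1.80 and 1.69 at 30C (log2 change -1.38, SE 0.17, adjusted p = 0.00172). MET10 efficiency was 0.739 and 0.672 at 37C, against 1.01, 1.17 and 1.21 at 30C (adjusted p = 0.0191). These were the falls among 29 tested genes of sulfate and methionine metabolism, beside 1 rise, of SAM3. Of all tested genes 3.88% fell and 2.83% rose, and the median of the list was -0.05.

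The low-abundance falls ICL1 and FMP45 rest on few reads at 37C. FMP45, a membrane protein of the eisosome family, had 1.90 and 2.33 RPKM of mRNA and 5 and 6 footprint reads at 37C, against 7.89, 7.34 and 5.41 RPKM of mRNA and 96, 67 and 47 footprint reads at 30C. FMP45 mRNA averaged 4.98 RPKM over the DED1 cultures, and the gene reached the levels needed for testing and naming through the DBP1 cultures. Its efficiency was 0.372 and 0.419 at 37C, against 1.49, 1.37 and 1.55 at 30C (log2 change -1.25, SE 0.19, limma adjusted p = 0.00480). ICL1, the isocitrate lyase of the glyoxylate cycle, had an efficiency of 0.0567 and 0.102 at 37C, against 0.205, 0.366 and 0.553 at 30C, with a wide spread among the 30C cultures. The 37C values of ICL1 rested on 10 and 16 footprint reads. ICL1 averaged 17.8 RPKM of mRNA and 5.40 RPKM of footprints over the DED1 cultures, and reached the level needed for naming through the DBP1 cultures. Of the 8 falls from PCL5 to ICL1, the calls of ICL1 and MET10 were lost without 37C culture 1, 37C culture 2, 30C culture 2 or 30C culture 3 (adjusted p of 0.0664 to 0.219), and those of PCL5, ICL1, FMP45 and MET10 without pairing by culture (0.0868 to 0.572).

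Genes known for regulatory upstream reading frames included HAP4 and CLN3. Of 15 such genes tested, 3 had lower efficiency (HAP4, TIF4631 and CLN3), against 3.88% of all tested genes, none had higher efficiency, and the median was -0.15. HAP4, the activating subunit of the respiratory transcription factor, had 116 and 124 RPKM of mRNA at 37C, against 83.3, 79.4 and 88.6 RPKM at 30C. The efficiency of HAP4 was 0.536 and 0.566 at 37C, against 0.889, 0.891 and 0.892 at 30C (log2 change -0.69, SE 0.10, limma adjusted p = 0.00325), and its footprints did not pass the test (adjusted p = 0.159). CLN3, the cyclin that starts the cell cycle, had 44.4 and 39.3 RPKM of mRNA at 37C, against 24.2, 21.7 and 19.9 RPKM at 30C, and an efficiency of 0.456 and 0.450 at 37C, against 0.621, 0.738 and 0.938 at 30C (adjusted p = 0.0220). In both genes mRNA was higher while footprints per mRNA were lower. GCN4, the best known gene of this kind, was picked after its value was seen: its efficiency was 0.289 and 0.231 at 37C, against 0.329, 0.345 and 0.258 at 30C, with overlapping groups (log2 change -0.25, SE 0.27, adjusted p = 0.618).

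The translation machinery showed a few falls on its own messages. Of 34 initiation factor genes, 3 had lower efficiency (TIF4631, TIF4632 and PAB1) and 2 higher (SUI1 and DBP1), against 3.88% and 2.83% of all tested genes. The median was -0.05, and DBP1 met the minimum level only through the DBP1 cultures. TIF4631 and TIF4632 encode the scaffold eIF4G, the partner of Ded1 at the cap. TIF4631 had an efficiency of 1.35 and 1.29 at 37C, against 1.73, 1.85 and 1.96 at 30C (log2 change -0.49, SE 0.08, limma adjusted p = 0.00814). TIF4632 had 1.63 and 1.83 at 37C, against 2.32, 2.78 and 3.34 at 30C, and the poly(A)-binding protein gene PAB1 had 2.81 and 3.24 at 37C, against 3.59, 4.10 and 4.50 at 30C. SUI1, which encodes the start codon selection factor eIF1, went the other way, with 1.02 and 1.06 at 37C, against 0.899, 0.846 and 0.851 at 30C.

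Among 21 elongation and termination factor genes 2 fell, against 3.88% of all tested genes. Both, EFT1 and EFT2, encode the same protein, elongation factor 2. EFT2 efficiency was 1.32 and 1.44 at 37C, against 1.88, 2.04 and 2.16 at 30C (log2 change -0.55, SE 0.11, limma adjusted p = 0.0143), and EFT1 was lower as well (-0.63, and -0.39 with adjusted p = 0.224 without 37C culture 1). SSB1 and SSB2 are the Hsp70 chaperones that bind nascent chains at the ribosome. They were the 2 of 8 ribosome-bound chaperone genes that fell, against 3.88% of all tested genes. SSB1 efficiency was 1.47 and 1.56 at 37C, against 1.83, 2.02 and 1.94 at 30C (adjusted p = 0.0323), and SSB2 fell by 0.32 on the log2 scale. Each of these pairs is near-identical in sequence, so their members are not separate evidence. Of the 10 calls of these genes with HAP4 and CLN3, 2 held without 37C culture 1, 2 without 37C culture 2, 10 without 30C culture 1, 3 without 30C culture 2 and 2 without 30C culture 3 (adjusted p of 0.0588 to 0.224 for those lost), and HAP4 alone passed without pairing. Median-of-ratios scaling kept 6 of the 10.

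Genes for mRNA decay and P-body proteins included several falls. Of 41 tested, 7 had lower efficiency (XRN1, CDC39, LSM1, EBS1, GBP2, POP2 and DHH1), against 3.88% of all tested genes, none had higher efficiency, 32 lay below 0, and the median log2 change was -0.19. XRN1, the exonuclease that degrades decapped mRNA, had an efficiency of 1.15 and 1.1 at 37C, against 1.79, 1.88 and 2.34 at 30C (log2 change -0.81, SE 0.12, limma adjusted p = 0.00480). CDC39, the scaffold of the Ccr4-Not deadenylase, had 1.43 and 1.27 at 37C, against 2.01, 2.26 and 2.59 at 30C (adjusted p = 0.00826), while its mRNA was higher (31.3 and 29.6 RPKM at 37C, against 22.5, 19.4 and 17.7 RPKM at 30C). POP2, a deadenylase of the same complex, had 0.688 and 0.778 at 37C, against 0.980, 0.935 and 0.909 at 30C. The temperatures did not overlap in these genes, as in all 334 calls.

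The decapping activator LSM1, a short gene of 519 bp, had an efficiency of 0.825 and 0.793 at 37C, against 1.04, 1.02 and 1.09 at 30C (log2 change -0.37, SE 0.09, limma adjusted p = 0.0262). DHH1, a DEAD-box helicase that represses translation and promotes decapping, had 2.70 and 2.31 at 37C, against 2.91, 3.38 and 3.63 at 30C (adjusted p = 0.0482). EBS1, of the nonsense-mediated decay pathway, and GBP2, an mRNA export factor, fell by 0.52 and 0.32 on the log2 scale. Without 37C culture 2 none of the 7 calls held, and without 37C culture 1 or 30C cultures 2 or 3 only XRN1 and CDC39 held (adjusted p of 0.0536 to 0.308 for those lost), as they did without pairing (0.152 to 0.399 for the others). With the length trend removed, 5 held, CDC39 and EBS1 were lost (adjusted p of 0.0710 to 0.115), and the log2 changes of XRN1 and CDC39 were smaller by over 1.5 times.

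Cell surface genes were mixed, with falls among wall synthesis and mannoprotein genes. FKS1, the main catalytic subunit of beta-glucan synthase, had 122 and 111 RPKM of mRNA at 37C, against 98.5, 90.8 and 84.6 RPKM at 30C. The efficiency of FKS1 was 1.82 and 1.72 at 37C, against 2.79, 3.25 and 3.52 at 30C (log2 change -0.84, SE 0.10, limma adjusted p = 0.00172). FKS1 and SCW10, a wall glucanase-like protein gene, were the 2 of 32 wall synthesis genes that fell. None rose, and 3.88% of all tested genes fell. SRL1, a wall mannoprotein gene, had 0.956 and 0.959 at 37C, against 1.38, 1.74 and 1.95 at 30C (log2 change -0.80, SE 0.13, adjusted p = 0.00688). YOR248W, the neighbouring identifier in the table, followed SRL1 closely, with 0.939 and 0.957 at 37C, against 1.49, 1.62 and 2.30 at 30C. It has no entry in the annotation used, so whether it shares reads with SRL1 was not tested.

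Of 25 mannoprotein genes, SRL1, PLB2 (a phospholipase B gene) and FLO5 fell and none rose, while 3.88% of all tested genes fell. FLO5 belongs to the repetitive flocculin family, so its reads may be shared. PTR2, the importer of small peptides, was nearly absent at 37C, with 1.48 and 2.47 RPKM of mRNA at 37C, against 20.2, 19.9 and 33.5 RPKM at 30C, and its efficiency was 3.19 and 2.07 at 37C, against 3.2, 4.0 and 3.86 at 30C (adjusted p = 0.0444). The gap between the nearest cultures of PTR2 was small. With 0.1 RPKM added in place of 1, the PTR2 log2 change was -0.555 in place of -0.82, and the call was lost (limma adjusted p = 0.202). The call was also lost with no minimum level (0.0635), with a replicate block (0.0764), without the intensity trend of the fit (0.057) and with the length trend removed (0.0546). Of the 7 calls of this set, only FKS1 held without 37C culture 1 or without 37C culture 2, 7 held without 30C culture 1, and 3 held without 30C culture 2 or without 30C culture 3 (adjusted p of 0.0511 to 0.272 for those lost). Without pairing FKS1, SRL1 and YOR248W passed and the others had adjusted p of 0.144 to 0.634.

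Gene length tracked the efficiency change across the whole set. Lengths from the RefSeq R64 annotation of the reference strain were matched for 4924 tested genes. The 141 rises had a median length of 750 bp and the 193 falls one of 2406 bp, against 1226 bp for all tested genes. In genes of up to 500 bp the median log2 efficiency change was 0.10, with 34 rises and 8 falls among 539 genes. From 500 to 1000 bp it was 0.06 (57 rises and 13 falls among 1347), and from 1000 to 2000 bp it was 0.0028 (46 rises and 56 falls among 1934). No gene over 2000 bp rose. From 2000 to 3000 bp the median was -0.10 with 55 falls among 701 genes, and from 3000 to 4500 bp it was -0.20 with 28 falls among 308. Over 4500 bp it was -0.44, with 32 falls among 95 genes, or 33.7% against 3.88% of all tested genes, and 91 of the 95 lay below 0.

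**Figure D3:**
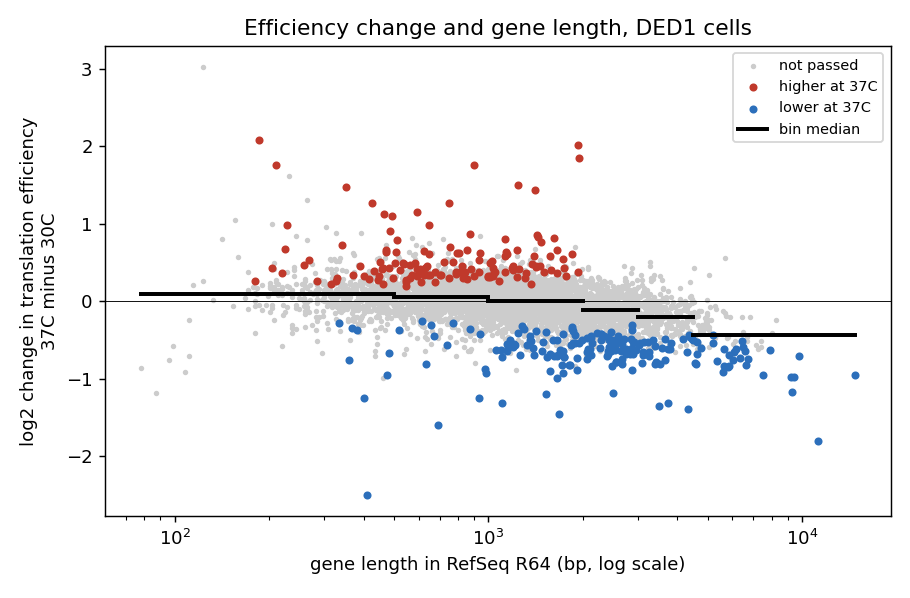
Log2 change in translation efficiency (37C minus 30C, DED1 cells) against gene length in bp on a log axis, with genes that passed in red (higher at 37C) and blue (lower at 37C) and black bars at the median of each length bin. The bin medians step down from 0.10 for genes up to 500 bp to -0.44 for genes over 4500 bp.

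In long genes the mRNA and footprints parted. Over 4500 bp the median log2 change was 0.43 in mRNA and -0.06 in footprints, while up to 500 bp it was 0.11 in mRNA and 0.19 in footprints. Over all tested genes it was 0.24 in mRNA and 0.21 in footprints. Median-of-ratios scaling moved these medians over all tested genes to -0.03 and -0.01, so the bin medians of each assay are best read against them. The median efficiency of genes over 4500 bp was 0.779 and 0.656 in the 37C cultures, against 0.871, 0.941 and 0.999 in the 30C cultures, with no overlap. From 2000 to 3000 bp it was 0.646 and 0.591 at 37C, against 0.646, 0.676 and 0.697 at 30C, where 37C culture 1 and 30C culture 1 were level. Genes up to 500 bp had 0.840 and 0.864 at 37C, against 0.854, 0.820 and 0.798 at 30C, and these overlapped. Long genes also had lower median levels (16.4 RPKM of footprints over 4500 bp, against 138 RPKM up to 500 bp), but among the 34 long genes that averaged at least 20 RPKM in both assays the median change was -0.42. Position along the gene is not in an RPKM value, so whether ribosomes were lost evenly along long messages was not tested, nor was mRNA integrity.

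**Figure D4:**
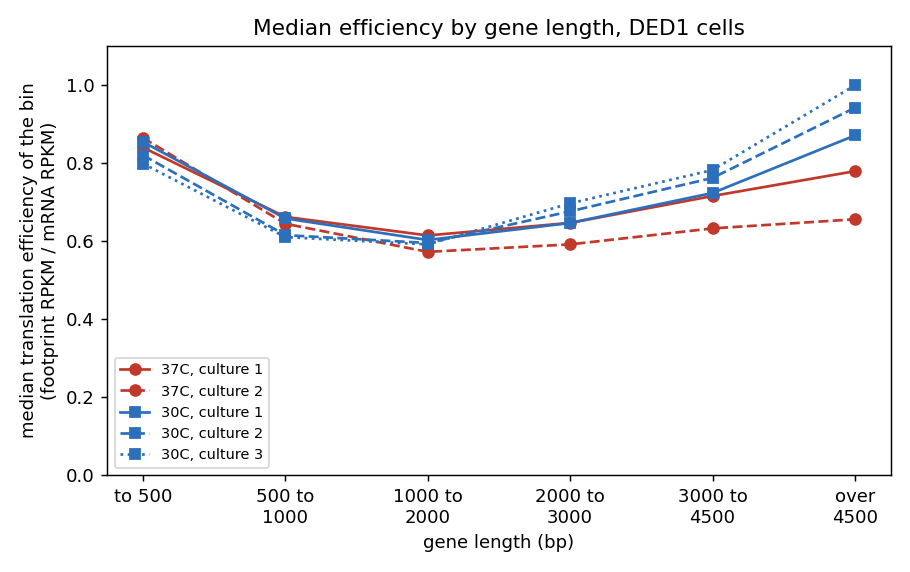
Median translation efficiency (footprint RPKM over mRNA RPKM) of the genes in each length bin, from short to long on the x axis, with a red line for each 37C culture and a blue line for each 30C culture of DED1 cells. The cultures lie close together up to 2000 bp, and over 4500 bp both 37C cultures (0.779 and 0.656) lie below all 30C cultures (0.871 to 0.999).

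The long genes that fell encode very large proteins of several pathways. TRA1, a pseudokinase of 11235 bp that recruits the SAGA and NuA4 acetyltransferases, had 37.8 and 30.7 RPKM of mRNA at 37C, against 11.9, 12.1 and 10.8 RPKM at 30C. TRA1 footprints were 18.0 and 11 RPKM at 37C, against 19.2, 17.3 and 17 RPKM at 30C, and overlapped. Its efficiency was 0.475 and 0.359 at 37C, against 1.62, 1.43 and 1.58 at 30C, or 3.47-fold lower (log2 change -1.80, SE 0.15, limma adjusted p = 7.72e-05). The mRNA of TRA1 rose with no matching rise in footprints. IRA1 and IRA2, the GTPase activators that restrain Ras, had higher mRNA and lower efficiency. IRA1 efficiency was 0.286 and 0.248 at 37C, against 0.594, 0.659 and 0.715 at 30C (log2 change -1.17, SE 0.17, adjusted p = 0.00378), and IRA2 efficiency was 0.265 and 0.229 at 37C, against 0.487, 0.478 and 0.576 at 30C. VPS13, a lipid transfer protein, fell by 0.98 on the log2 scale.

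Large biosynthetic enzymes were part of the same set. ACC1, the acetyl-CoA carboxylase that opens fatty acid synthesis, had an efficiency of 1.53 and 1.63 at 37C, against 2.34, 2.66 and 2.98 at 30C (log2 change -0.74, SE 0.10, limma adjusted p = 0.00231). FAS1, a fatty acid synthase subunit, had 2.30 and 2.78 at 37C, against 3.42, 3.91 and 4.35 at 30C. URA2, the multifunctional enzyme at the start of pyrimidine synthesis, had 2.49 and 2.51 at 37C, against 3.94, 4.28 and 5.24 at 30C (adjusted p = 0.00855). These enzymes had more than 1 ribosome footprint RPKM per mRNA RPKM at both temperatures. UTP20, a ribosome assembly factor, had 0.652 and 0.440 at 37C, against 1.00, 1.13 and 1.09 at 30C. REA1, the dynein-like ATPase of ribosome assembly and at 14733 bp the longest named here, had 0.685 and 0.392 at 37C, against 1.05, 1.03 and 1.1 at 30C (adjusted p = 0.0143; log2 change -0.95, and -0.60 without 37C culture 2). TRA1, IRA1, IRA2, VPS13, ACC1, FAS1 and REA1 were named after their values were seen.

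Of these 9 genes and FKS1, 8 held without 37C culture 1, 4 without 37C culture 2, 10 without 30C culture 1, 9 without 30C culture 2 and 8 without 30C culture 3 (adjusted p of 0.0537 to 0.155 for those lost), and TRA1 and FKS1 passed without pairing. Removing the smooth length trend left 183 calls over all genes (75 higher and 108 lower), and only TRA1 and FKS1 of these 10 still passed (adjusted p of 0.0539 to 0.623 for the others). After that removal the median of genes over 4500 bp was -0.08, with 3 rises and 3 falls.

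Amino acid synthesis genes changed in both directions. Of 59 tested, 3 fell and 3 rose, against 3.88% and 2.83% of all tested genes. Those that fell were ARO1 (4767 bp), the enzyme of aromatic amino acid synthesis, LYS2 (4179 bp) and the glutamate synthase gene GLT1 (6438 bp). ARO1 efficiency was 2.91 and 3.02 at 37C, against 4.12, 4.37 and 5.10 at 30C (log2 change -0.61, SE 0.10, limma adjusted p = 0.00817). The 3 that rose were of 1080 to 1659 bp: HOM6, HIS7 and GDH1, with log2 changes of 0.27, 0.36 and 0.23. With the length trend removed, 1 of the 6 calls held, and without pairing none did (adjusted p of 0.332 to 0.762). Without 37C culture 2 none held, without 37C culture 1 or 30C cultures 2 or 3 only 1 did, and without 30C culture 1 there were 5 (adjusted p of 0.0611 to 0.353 for those lost).

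The ribosome's own genes changed mainly in mRNA. Of 79 large-subunit and 57 small-subunit protein genes, 67 and 53 had lower mRNA at 37C, against 11.1% of all tested genes. The median log2 mRNA change was -0.41 in each list. Their efficiency changed little: 4 large-subunit genes fell, 1 rose and the median was -0.04, and 1 small-subunit gene fell with a median of -0.04. Of all tested genes 3.88% fell and 2.83% rose. RPP2B, an acidic stalk protein, had an efficiency of 0.642 and 0.633 at 37C, against 0.779, 0.774 and 0.759 at 30C (log2 change -0.27, SE 0.06, limma adjusted p = 0.0176). RPL30, whose product regulates its own message, rose, with 0.904 and 0.928 at 37C, against 0.799, 0.805 and 0.794 at 30C (adjusted p = 0.0385). The other falls were RPL15A, RPL8A, RPL1A and RPS20, of which all except RPS20 have a near-identical copy. Under median-of-ratios scaling 2 of the 8 calls of this paragraph and the next held (adjusted p of 0.0890 to 0.173 for those lost), so these falls depend on the scaling.

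Among 96 ribosome assembly genes, 3 fell (NSR1, RRP5 and UTP20) and none rose, against 3.88% and 2.83% of all tested genes, with a median of -0.05. NSR1, a nucleolar protein of small subunit assembly, had 238 and 293 RPKM of mRNA at 37C, against 453, 545 and 645 RPKM at 30C, and an efficiency of 1.22 and 1.15 at 37C, against 1.48, 1.60 and 1.62 at 30C (log2 change -0.40, SE 0.07, limma adjusted p = 0.00826). None of 74 mitochondrial ribosomal protein genes changed in efficiency, while 54 had lower mRNA, against 11.1% of all tested genes. Their median log2 mRNA change was -0.41. No call among the ribosomal, NSR1 and RRP5 genes held without 37C culture 2 or without pairing, and 2, 3, 2 and 1 of the 8 held without 37C culture 1 and without 30C cultures 1, 2 and 3 (adjusted p of 0.0517 to 0.3 for those lost).

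The level of efficiency itself was taken from the DBP1 cultures at 30C, which share no library with the contrast. Tested genes were cut into 5 groups of equal size by that level. Of all tested genes 3.88% fell and 2.83% rose. In the group with the highest efficiency, above 1.05, 78 of 996 fell (7.83%) and 30 rose (3.01%), and the median change was -0.05. In the group with the lowest efficiency, up to 0.444, 36 fell (3.61%) and 32 rose (3.21%) among 996 genes, and the median was 0.03. The groups between them had 19 to 35 falls and 19 to 37 rises. The groups also differed in level, with median footprints of 143 RPKM in the highest and 16.5 RPKM in the lowest. The part of level in these counts was not tested.

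The temperature change was also measured in the DBP1 cultures, which share no library with the DED1 cultures but are not fully separate evidence. The spread of each gene was estimated from the cultures of both strains together, and the minimum level was set over both. A gene with a small spread could thus pass more easily in both strains, so the shared calls are not independent. The sample titles mark the same experiments for both strains, so a difference between experiments would appear in both. Of the 141 genes that rose in DED1 cells, 125 (88.7%) had a change above 0 in DBP1 cells, as did 39% of all tested genes. Of the 193 that fell, 191 (99%) had a change below 0 in DBP1 cells, as did 61% of all tested genes. Calls were shared for 22 rises, which are 15.6% of those in DED1 cells and 45.8% of the 48 in DBP1 cells (0.964% of tested genes), and for 111 falls, which are 57.5% of those in DED1 cells and 48.1% of the 231 in DBP1 cells (4.64%). No gene passed in opposite directions. SSA4 had a log2 change of 2.02 in DED1 cells and 2.08 in DBP1 cells, and TRA1 had -1.80 in DED1 cells and -1.56 in DBP1 cells. In genes over 4500 bp the median change was -0.44 in DED1 cells and -0.35 in DBP1 cells.

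**Figure D5:**
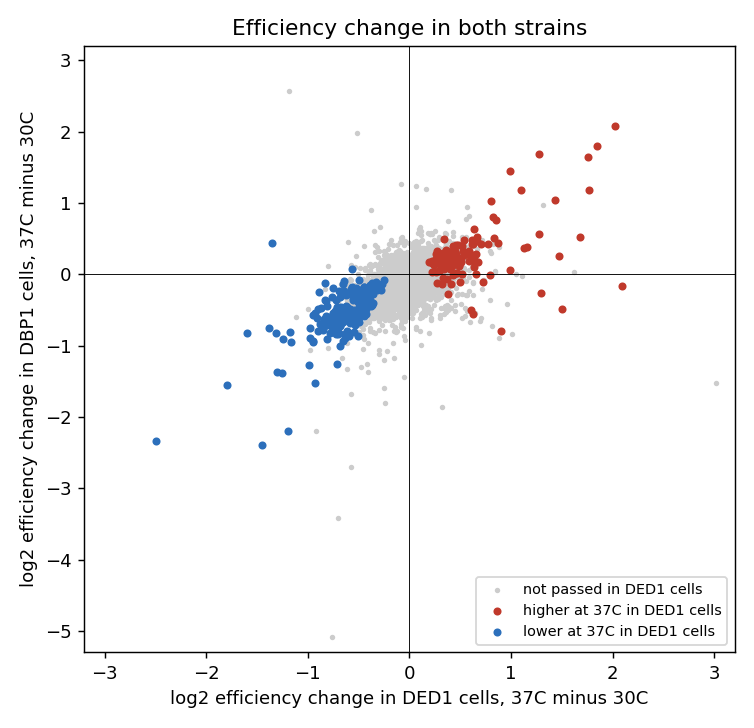
Log2 change in translation efficiency (37C minus 30C) in DBP1 cells (y axis) against that in DED1 cells (x axis), with genes that passed in DED1 cells in red (higher) and blue (lower). Of the 193 blue genes 191 lie below 0 on the y axis, and of the 141 red genes 125 lie above it.

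The difference of the temperature change between the strains, DED1 cells minus DBP1 cells, passed the test in 0 of 4977 genes (0%). At an unadjusted p under 0.05 there were 320 genes, and the smallest limma adjusted p was 0.270. The model without pairing also gave 0, and 1 gene passed without 37C culture 1. Several named rises nevertheless had changes near 0 or below in DBP1 cells. DMO1 had 1.47 in DED1 cells and 0.25 in DBP1 cells (adjusted p of the difference 0.509), MIN9 had 0.99 in DED1 cells and 0.06 in DBP1 cells (0.537), and DBP1 itself had 0.61 in DED1 cells and -0.51 in DBP1 cells (0.270), where its coding sequence is driven from the DED1 regulatory regions as well. GCN4 had -0.25 in DED1 cells and -1.59 in DBP1 cells (0.509). None of these differences passed, so they are given as values.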

How the data were processed

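The mRNA of polyadenylated transcripts (fragments of 50 nt) and ribosome footprints (28 to 31 nt) were sequenced, per the labels' protocols. CASAVA, bcl2fastq 2.17 and Bowtie2 are named per the submitters' processing notes, and the genome build and read counter were not given in the sources used here. RPKM values per gene and library are what the authors deposited. Columns were assigned to samples by their names, and no column was left over. Read numbers were recovered from the steps of low RPKM values with lengths from RefSeq R64 less 60 bp, which made 86.5 to 88.3% of the values in every library whole within 0.02 reads. RefSeq R64, of another strain than SK1, matched 5994 of the 6679 genes (89.7%) and was used for names and gene lengths only. Of the 4977 tested genes, 53 had no length.

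Efficiency was log2(footprint RPKM + 1) minus log2(mRNA RPKM + 1) per culture, and the added 1 alters the fold change of low genes. It can shrink a change, as in SSA3 (log2 change 3.11 with 0.1 added and 1.85 with 1). It can also enlarge a change, as in PTR2 (-0.555 with 0.1 added and -0.82 with 1). Efficiency was fitted with limma 3.58.1 in R 4.3.3, with 4 groups over all 10 cultures, an intensity trend and Benjamini-Hochberg adjustment over all tested genes. The mRNA and footprints were fitted likewise. Efficiencies printed per culture are plain ratios without the added 1. The fit was tested on simulated data. The pairing of a footprint with an mRNA library rests on shared strain, temperature and replicate number. Replicates are separate samples per the labels, which do not say that they came from separate cultures ("culture" here means such a pair of libraries), so p-values measure the spread between these samples only. Genes named are up to 12 per direction with the largest change among those passing, with a mean of at least 20 RPKM over all 10 cultures in both assays and no overlap between temperatures, up to 3 per gene list by smallest adjusted p, DED1 and DBP1, and further genes picked after their values were seen. The members and the 38 gene lists were chosen with earlier results of these data known. Start codon context was not analysed here.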

Additional observations from a re-analysis of the deposited data

How the results depend on the processing

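Of 334 efficiency calls in DED1 cells, 49 were left without pairing by culture and 183 with the length trend removed (an alternative chosen after seeing the data), and leaving out 1 culture gave 41 to 300. The other alternatives gave 232 to 344. The split was 75 higher and 218 lower without the intensity trend, and 119 higher and 113 lower with a minimum mean of 20 RPKM. For mRNA, 1732 of 2648 genes passed with that minimum, by construction with fewer genes tested. For footprints, leaving out 1 culture gave 1674 to 2485 of 2621. For the strain difference it gave 0 to 1, and every other alternative gave 0. With a replicate block, 315 efficiency calls were made (142 higher and 173 lower). Deviations of same-numbered samples at 37C and 30C correlated at 0.04 to 0.09 in efficiency, at -0.09 to 0.31 in mRNA and at -0.04 to 0.33 in footprints, with the negative values in DED1 replicate 2, so the numbers were not taken to pair the samples. Of the 100 named genes with a call, the call was kept in 97 and 92 with a pseudocount of 0.1 and 5 RPKM, 89 with no minimum level, 80 with median-of-ratios scaling, 87 with the replicate block, 76 with DED1 cultures alone, 61 without the intensity trend, 15 without pairing and 54 with the length trend removed. With the minimum level set on the DED1 cultures alone, also chosen after seeing the data, 333 genes passed (138 higher and 195 lower), and 95 of the 100 kept their call, all except DBP1, DDR2, SSA3, FMP45 and ALD3, which were not tested. None turned direction in these settings or with 1 culture left out. With 5 RPKM added, the low genes FMP45, ICL1 and PHO5 had log2 changes of -0.63, -0.61 (adjusted p = 0.122) and 0.92.

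The direction turned in named genes that had not passed. With the length trend removed, log2 changes were 0.11 for GCN1, 0.00088 for CDC60 and 0.016 for RPA190. SSP1 (-0.03 as tested) had 0.026 with median-of-ratios scaling and -0.18 to 0.12 with 1 culture left out, and HXT2 had -0.0017 to 0.21 with 1 left out. The cause was not tested. Low counts limit genes such as DDR2, CRS5, SSA3, HSP26, ALD3, ICL1 and FMP45. The planned comparison by start codon context was not run.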

Other observations

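Some genes of zinc and phosphate supply, ZRT1, ZPS1 and PHO5, are given by culture. ZRT1 had 635 RPKM of mRNA in 37C culture 1 and 39.1 RPKM in 37C culture 2, against 9.71 to 17.2 RPKM at 30C, with efficiencies of 1.09 and 0.803 at 37C. ZPS1, a zinc-responsive gene picked after its values were seen, had 48.2 and 18.4 RPKM of mRNA at 37C, against 25.4, 23.9 and 19.6 RPKM at 30C, and efficiencies of 0.448 and 0.347 at 37C, against 0.164, 0.111 and 0.138 at 30C (limma adjusted p = 0.0225). PHO5 had 64.1 and 24.0 RPKM of mRNA at 37C, against 5.30, 6.08 and 6.67 RPKM at 30C, while its efficiencies of 1.32 and 1.26 at 37C were close. They were chosen for these values. In all 3 genes the culture with more mRNA was 37C culture 1. The cause was not tested.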
